A study of Mus musculus with 4 samples.

Results

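miR-320-3p, miR-484, miR-877-5p and miR-877-3p are the mature products of 3 mouse precursors that are made without the nuclease Drosha. They were selected by name and all 4 were present in every sample, out of 869 miRNAs listed in at least 1 sample. The samples came from C2C12, a mouse myoblast line (strain background 129/Rej in the labels) that fuses into myotubes in low-serum medium. Small RNA was sequenced from myotubes on day 6 of differentiation, with 2 samples kept without guanidinoacetic acid (NC, 0 mM) and 2 samples given 20 mM guanidinoacetic acid, the direct precursor of creatine (GAA). All samples share the same line, and nothing in the labels shows whether the samples of a group were separate cultures, so that the p-values describe the spread between these samples.

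Most miRNAs begin as a long capped transcript, from which the Microprocessor, Drosha with its partner DGCR8, cuts a hairpin that Dicer then trims to a duplex. A few precursors bypass the first cut. The miR-320 hairpin is transcribed directly, so that its 5′ end is the capped transcription start and the 3p strand is the one loaded into Argonaute. miR-484 has also been described as a short hairpin transcript that persists without the Microprocessor. Its mature product lies on the 5′ side of the hairpin, at bases 5 to 26, and caps were not measured here. miR-877 is a mirtron, a short intron that folds into a hairpin after splicing and debranching. In muscle and heart cells, miR-320 has been linked to glycolytic phosphofructokinase and miR-484 to the mitochondrial fission factor Fis1.

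The sequences below show how the precursors differ at their ends, with RefSeq entries on GRCm38.p6 matching 3 of the 4 mature miRNAs. The seed, bases 2 to 8, is in capitals in the mature miRNAs, and the mature stretch is in capitals in the hairpins.
miR-484: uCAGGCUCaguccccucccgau
miR-877-5p: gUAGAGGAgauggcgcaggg
miR-877-3p: uGUCCUCUucucccuccuccca
Mir484 hairpin: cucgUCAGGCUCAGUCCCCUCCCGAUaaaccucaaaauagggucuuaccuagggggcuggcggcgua
Mir877 hairpin: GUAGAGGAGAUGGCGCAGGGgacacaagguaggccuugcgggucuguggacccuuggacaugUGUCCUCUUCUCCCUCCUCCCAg

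The Mir877 hairpin of 85 bases begins with GU and ends with AG, the letters of a splice donor and acceptor, as did 2.99% of 1005 RefSeq mouse hairpins. It lies at chr17:35960730-35960814 on the minus strand, which is exactly intron 12 of Abcf1 in GENCODE M21. Abcf1 encodes an ATP-binding cassette protein that acts in translation initiation. miR-877-5p occupies bases 1 to 20 of the hairpin and so starts at the donor, and miR-877-3p occupies bases 63 to 84, with a single base left before the end of the intron. Among 2202 annotated miRNA genes, 51 (2.32%) covered at least 80% of an intron on their own strand.

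The hairpins of miR-320 and miR-484 lie outside any intron on their strand and next to a promoter that points the other way. Mir320, at chr14:70443510-70443591 on the plus strand, is separated by 62 bases from the start of Polr3d, which encodes a subunit of RNA polymerase III. Mir484, at chr16:14159626-14159692 on the plus strand, is separated by 358 bases from the nearest start of Marf1, which encodes an RNA regulator known from the oocyte. A longer Marf1 transcript runs over Mir484 on the opposite strand. A divergent transcript start within 500 bases was annotated for 52 of the 2202 miRNA genes (2.36%), and 13 of these were closer than that of Mir320. The hairpin of 67 bases folded with 18 base pairs and a minimum free energy of -24.6 kcal/mol for Mir484, and that of Mir877 with 28 base pairs and -36.5 kcal/mol. No other mouse miRNA of the RefSeq table shares the seed of miR-484, miR-877-5p or miR-877-3p.

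The deposited value of each miRNA was log2(RPM + 1), where RPM is reads per 1000000 mappable reads. The mappable reads numbered between 4732359 and 5657704 per sample, and 1 read was worth between 0.177 and 0.211 RPM. The RPM summed over all listed miRNAs came to 33.6% and 43.6% of the mappable reads in NC and to 56.3% and 50.4% in GAA. A miRNA with a constant share of this sum therefore has a higher RPM in GAA. The levels of the 4 members are given below in RPM and as a share of the summed miRNA RPM. The sums count every row, also rows with equal values such as miR-199a-3p and miR-199b-3p, with a mean of 4732 RPM each. Reads listed under more than 1 name thus enter the sums and shares more than once. All 7 muscle miRNAs used to check the label were listed. They summed to 10480 to 13715 RPM in NC and to 10533 to 11217 RPM in GAA. Most of the sum came from miR-486a-5p, miR-133a-3p and miR-133b-3p, with mean levels of 5951, 2877 and 2161 RPM. miR-206-3p had 452 RPM, and miR-1a-3p, miR-208b-3p and miR-499-5p were low, at 31.7, 10.2 and 3.74 RPM. The miRNAs of liver, epithelium, blood cells and neurons summed to at most 59.8 RPM each, with the neuronal miR-9-5p at a mean of 42.9 RPM.

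miR-484 and miR-320-3p were moderately abundant and the mirtron products were rare. Averaged over the 4 samples, miR-484 had 354 RPM and ranked 83 of the 869 miRNAs, miR-320-3p had 217 RPM and ranked 96, miR-877-5p had 7.45 RPM and ranked 270, and miR-877-3p had 2.46 RPM and ranked 346. The most abundant miRNA, miR-22-3p, stood 246 times higher than miR-484. Together the 4 members took 0.112% and 0.0914% of the summed miRNA RPM in NC and 0.158% and 0.131% in GAA.

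For comparison, 821 miRNAs were taken as canonical, of which 350 had at least 1 RPM in every sample. They are those that remained after exclusions, and their dependence on Drosha was not tested. Those left out were the members, a list of other noncanonical miRNAs, and miRNAs whose precursor fills an intron or overlaps a small nucleolar RNA. The last of these could be found for the 717 miRNAs with a RefSeq sequence, and the rest were kept as canonical. The median canonical miRNA of the 350 stood at 26.4 and 29.3 RPM in NC and at 41.5 and 35.9 RPM in GAA. On the log2 scale, miR-320-3p lay above this median by 2.57 and 2.72 in NC and by 2.85 and 2.47 in GAA, and miR-484 by 2.92 and 2.68 in NC and by 3.75 and 3.60 in GAA. miR-877-5p lay below it in every sample, at -1.99 and -1.96 in NC and at -1.90 and -2.26 in GAA. The levels of different miRNAs also depend on ligation and amplification, which were not measured here, so their order within a sample is a description of the libraries.

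**Figure D1:**
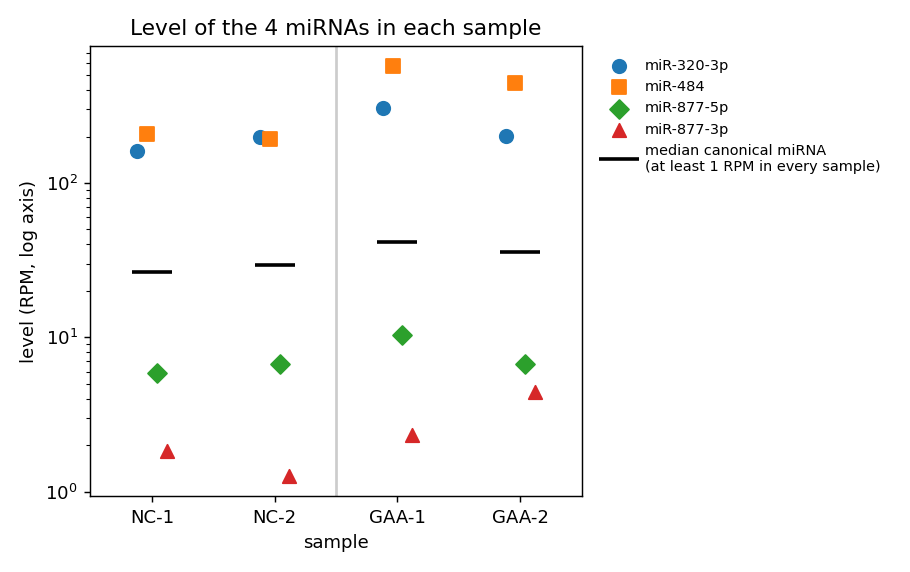
Level in RPM (log axis) of the 4 miRNAs in each NC and GAA sample, with a black bar for the median of the 350 canonical miRNAs that had at least 1 RPM in every sample. miR-484 and miR-320-3p sit above the bar in every sample and both miR-877 arms below it, and miR-484 separates from miR-320-3p in the GAA samples.

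Among all miRNAs tested between GAA and NC, 0 of 869 (0.0%) passed the thresholds of an FDR below 0.01 and an absolute log2 fold change above 1 with limma, and 0 of the 4 members did. At an unadjusted p below 0.05 there were 152 miRNAs. With 2 samples in each group, the smallest p of the exact permutation tests used below is 0.333, and the values of every sample are therefore given. Both GAA samples lay above both NC samples in RPM for 3 of the 4 members, against 64.4% of the 371 miRNAs with at least 1 RPM in every sample. As a share of miRNA RPM this order held for 1 of the 4 members, miR-484, against 22.4% of the 371.

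Of the 4 members, miR-484 had the widest gap between the groups in log2 fold change. It stood at 206 and 193 RPM in the NC samples and at 569.8 and 445 RPM in the GAA samples, from 1016 and 911 reads against 3172 and 2520. Both GAA samples were above both NC samples, and the mean of 508 ± 88 RPM (SD, n = 2) was 2.55 times the NC mean of 199 ± 9.8 RPM (SD, n = 2). The log2 fold change was 1.33 with a standard error of 0.19 (adjusted p = 0.205 with limma), and its unadjusted 95% interval ran from 0.80 to 1.86. The replicates differed by 0.10 in NC and 0.35 in GAA on this scale. By p, miR-484 ranked 4 of the 869 miRNAs, and its adjusted p was the lowest of the fit, shared by 44 miRNAs.

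The gap of miR-484 was narrower but still present as a share of the miRNAs. The first NC sample gave a share of 0.0614% (95% Wilson interval 0.0578% to 0.0653%), and the second gave 0.0441% (0.0413% to 0.0471%). The first GAA sample gave 0.101% (0.0977% to 0.105%), and the second gave 0.0884% (0.0850% to 0.0919%). These intervals cover the counting of reads only. The intervals of the NC samples did not overlap each other, and both GAA intervals lay above both. The mean share in GAA was 1.80 times that in NC (exact permutation test, two-sided, p = 0.333, the smallest possible). By level, miR-484 ranked 90 and 95 within the NC samples and 76 and 77 within the GAA samples.

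Set against the median canonical miRNA, miR-484 was also higher in GAA. The median log2 fold change of the 350 canonical miRNAs was 0.49, with quartiles of 0.28 and 0.70, and 99.1% of them had a lower log2 fold change than miR-484. Relative to the median of the 350 in each sample, miR-484 was 0.87 higher in GAA on the log2 scale, and relative to the median of all 821, which have few reads, it was 1.05 higher (exact permutation test, two-sided, p = 0.333 for each). When each sample was centred on the median of the 350 before the fit over all miRNAs, the adjusted p of miR-484 was 0.0185 with limma. This was above the FDR threshold of 0.01, and the log2 fold change of 0.87 was below the threshold of 1. With other divisors the adjusted p with limma was 0.252 (summed miRNA RPM), 0.0279 (that sum without the 5 most abundant miRNAs) and 0.139 (median-of-ratios factors). Among the 371 miRNAs with at least 1 RPM in every sample, miR-484 ranked 7 by log2 fold change, and among the 83 miRNAs with a mean level at or above its own it ranked 1.

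The log2 fold change of miR-320-3p, though not its level, was close to that of the median canonical miRNA. miR-320-3p stood at 161 and 198 RPM in NC and at 305 and 203 RPM in GAA, from 794 and 939 reads against 1699 and 1148. Both GAA samples were above both NC samples, but GAA-2 exceeded NC-2 by less than the NC samples differed from each other. The log2 fold change was 0.47 with a standard error of 0.27 (adjusted p = 0.427 with limma) and an unadjusted 95% interval from -0.28 to 1.22. As a share of miRNA RPM it took 0.0480% and 0.0455% in NC and 0.0542% and 0.0403% in GAA, so that the GAA samples lay on either side of the NC samples. The mean share in GAA was 1.01 times that in NC, and relative to the median of the 350 canonical miRNAs the difference was 0.01 on the log2 scale (exact permutation test, two-sided, p = 1 for each). Of these canonical miRNAs, 47.7% had a lower log2 fold change.

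**Figure D2:**
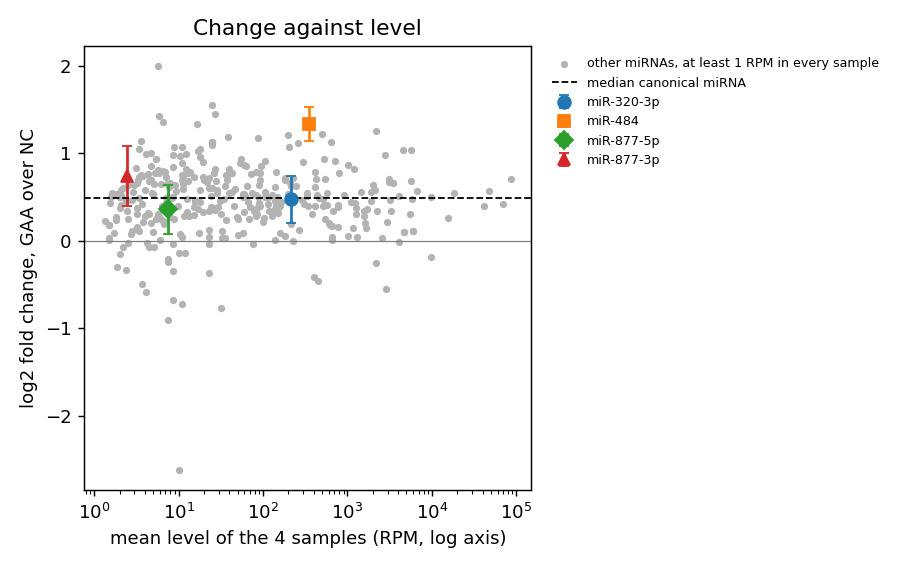
Log2 fold change of GAA over NC on log2(RPM + 1) against the mean RPM of the 4 samples (log axis) for the 371 miRNAs with at least 1 RPM in every sample; bars on the 4 members are standard errors and the dashed line is the median canonical miRNA. miR-320-3p lies close to the line at 0.47 and miR-484 at 1.33, above every other miRNA of its level or higher.

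The difference between miR-484 and miR-320-3p can also be read from their ratio. Within a sample this ratio does not depend on the number by which the reads are divided. miR-484 had 1.28 and 0.970 times the RPM of miR-320-3p in the NC samples and 1.87 and 2.20 times in the GAA samples. In NC the order of both miRNAs differed between the replicates, whereas in GAA miR-484 was the higher in both samples. The mean log2 ratio was 0.86 higher in GAA (exact permutation test, two-sided, p = 0.333). The ratio of miR-320-3p to miR-877-5p stayed between 27.4 and 30.2 in all 4 samples, with a difference of 0.07 between the groups on the log2 scale (exact permutation test, two-sided, p = 0.667).

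**Figure D3:**
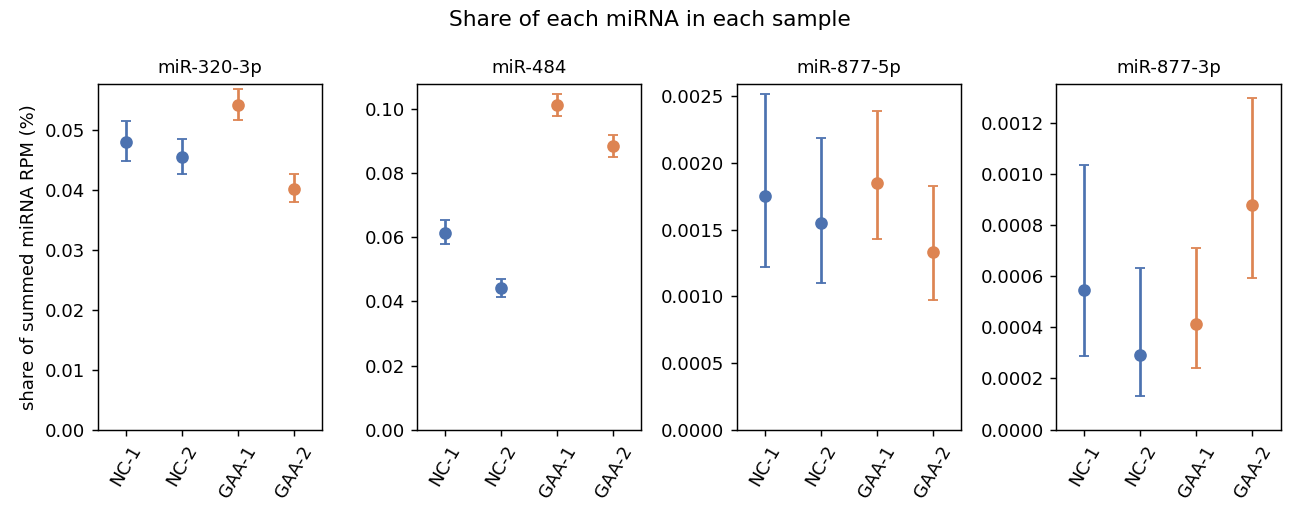
Share of the summed miRNA RPM (%) of each miRNA in the 2 NC samples (blue) and the 2 GAA samples (orange), with 95% Wilson intervals that cover counting error only. The GAA samples of miR-484 lie above its NC samples, at 0.101% and 0.0884%, and for the other miRNAs the groups overlap.

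Both arms of miR-877 were measured from few reads. miR-877-5p stood at 5.89 and 6.76 RPM in NC and at 10.4 and 6.72 RPM in GAA, from 29 and 32 reads against 58 and 38. The higher value in GAA came from GAA-1, since GAA-2 lay between the NC samples. The log2 fold change was 0.36 with a standard error of 0.28 (adjusted p = 0.524 with limma), on a scale where the pseudocount of 1 draws low values together. As a share of miRNA RPM, miR-877-5p took 0.00175% and 0.00155% in NC and 0.00185% and 0.00133% in GAA, and the mean share in GAA was 0.964 times that in NC.

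miR-877-3p stood at 1.83 and 1.27 RPM in NC and at 2.34 and 4.42 RPM in GAA, from 9 and 6 reads against 13 and 25. Both GAA samples were above both NC samples in RPM, and the log2 fold change was 0.75 with a standard error of 0.34 (adjusted p = 0.345 with limma). The shares overlapped, at 0.000544% and 0.000290% in NC and 0.000415% and 0.000877% in GAA. Without GAA-2 the log2 fold change was 0.40, and without GAA-1 it was 1.10.

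Of the reads of both miR-877 arms, the 5p arm held 76.3% (95% Wilson interval 60.8% to 87.0%) for the first NC sample and 84.2% (69.6% to 92.6%) for the second. For the GAA samples it held 81.7% (71.2% to 89.0%) and 60.3% (48.0% to 71.5%), so that the 5p arm was the larger in every sample and GAA-2 was the lowest. The NC mean was 80.3% ± 5.6 (SD, n = 2), beside a GAA mean of 71.0% ± 15.1 (SD, n = 2) (exact permutation test, two-sided, p = 0.667). Compared with 155 canonical precursors that had at least 10 reads from both arms together in every sample, miR-877 used its arms more evenly than most. The median canonical precursor gave 96.3% of its reads from the major arm, and 27 of the 155 (17.4%) had a smaller major arm than the mean of 75.6% in miR-877. miR-1981, whose hairpin also fills an intron, was more even than miR-877, with a mean major arm of 60.7%. The 5p share of miR-877 spanned 23.9 percentage points over the samples, and that of miR-1981 spanned 18.3. Among the 27 canonical precursors with more even arms the median span was 11.1 points, and 4 of them, miR-471, miR-212, miR-671 and miR-455, spanned at least as much as miR-877. In their shallowest sample these had 23, 20, 111 and 28 reads of both arms, and miR-877 had 38, so that counting adds to such spans. Among 56 canonical precursors with fewer than 200 such reads, of any arm balance, the median span was 8.0 points. For Mir320 no 5p row was listed in any sample, and for Mir484 a single mature miRNA was named.

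**Figure D4:**
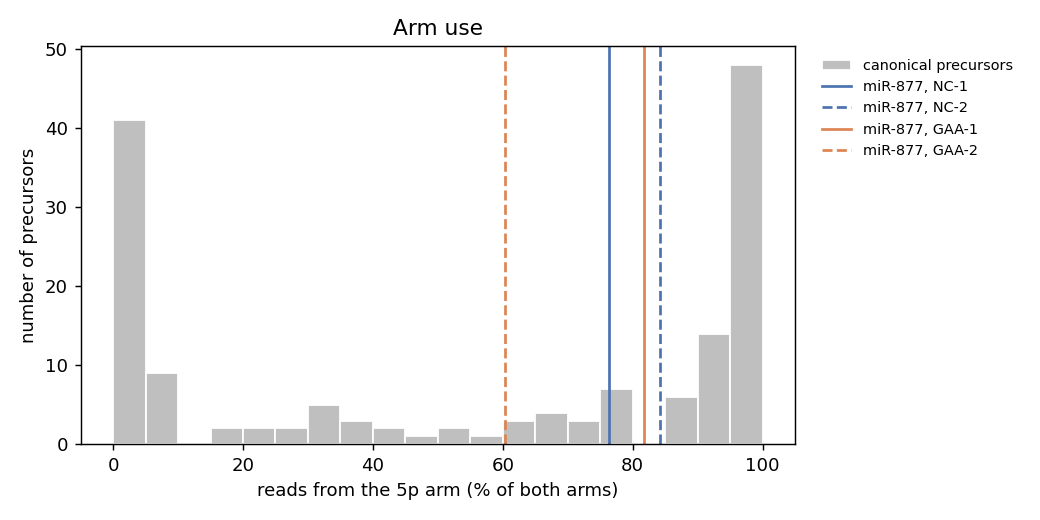
Number of the 155 canonical precursors by the percentage of their reads from the 5p arm (mean of the 4 samples, bins of 5 points), with vertical lines for miR-877 in each sample. Most canonical precursors lie near 0% or 100%, and miR-877 lies between 60.3% and 84.2%.

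Other precursors made outside the canonical route were taken from a list of 9 mature miRNAs, of which 7 were listed in at least 1 sample and 0 passed the thresholds. The mirtron products miR-1224-5p and miR-1224-3p were not listed in any sample, although their hairpin fills intron 22 of Vwa5b2 as exactly as Mir877 fills its own. miR-702-5p and miR-702-3p, from an intron of Plod3, had at most 2 reads in a sample. Their sequences show the donor letters at the start of each 5p arm.
miR-1224-5p: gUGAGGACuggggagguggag
miR-702-5p: gUGAGUGGggugguuggcaug
The products with a small nucleolar RNA origin were more abundant. miR-1839-5p stood at 39.2 and 60.6 RPM in NC and at 54.1 and 48.1 RPM in GAA, so that the groups overlapped in RPM. As a share of miRNA RPM it took 0.0117% and 0.0139% in NC and 0.00960% and 0.00954% in GAA, and there the GAA values were the lower ones. Its other arm, miR-1839-3p, stood at 5.69 and 5.07 RPM in NC and at 12.0 and 11.1 RPM in GAA. Both GAA samples were above both NC samples in RPM and as a share, and its log2 fold change was 0.98 with a standard error of 0.19 (adjusted p = 0.205 with limma). miR-664-3p, whose hairpin overlaps Snora36b, ranged from 9.54 to 12.9 RPM in NC and from 13.1 to 15.4 RPM in GAA. Its shares had the opposite order, at 0.00284% and 0.00295% in NC and at 0.00274% and 0.00260% in GAA. miR-451a, whose precursor is cut by Argonaute 2 in place of Dicer, was counted 10 and 4 times in NC and 4 times and 1 time in GAA.

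The annotation gave a wider set of mirtron candidates, since 24 listed mature miRNAs came from hairpins that cover at least 80% of an intron. Their median log2 fold change was 0.16, beside 0.22 over all 869 miRNAs, and 0 passed the thresholds. Most were rare, with a median of 0.144 RPM, and the pseudocount of 1 draws the log2 fold changes of such miRNAs toward 0. In 5 of the 24 the level was at least 1 RPM in every sample, with log2 fold changes from 0.36 to 1.36. The median over the 350 canonical miRNAs with at least 1 RPM in every sample was 0.49. Beside the miR-877 arms the 5 were miR-6944-3p, from intron 9 of Dbn1, and both arms of miR-1981, from intron 5 of Marc2. miR-6944-3p stood at 9.34 and 8.03 RPM in NC and at 30.4 and 18.0 RPM in GAA (log2 fold change 1.34, standard error 0.31). miR-1981-3p stood at 3.25 and 3.17 RPM in NC and at 9.88 and 9.72 RPM in GAA (log2 fold change 1.36, standard error 0.19), and miR-1981-5p at 6.70 and 6.97 RPM in NC and at 12.8 and 9.90 RPM in GAA (log2 fold change 0.64, standard error 0.22). In RPM both GAA samples were above both NC samples for these products, as for 64.4% of the 371 miRNAs, and not for miR-877-5p. As a share of miRNA RPM the order held for miR-6944-3p and miR-1981-3p, whereas miR-1981-5p overlapped, at 0.00200% and 0.00160% in NC and at 0.00227% and 0.00196% in GAA. Each adjusted p was between 0.205 and 0.276 with limma.

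The miRNAs closest in pattern were found from the 4 log2 values after each miRNA was centred on its own mean, among canonical miRNAs that never fell under 10 reads. For miR-320-3p these were miR-425-5p and miR-140-5p, at Euclidean distances of 0.056 and 0.057. For miR-877-5p they were miR-30e-3p and miR-17-3p, at 0.11 for each. For miR-484 the closest lay farther away, with miR-423-3p at 0.20 and miR-465b-3p at 0.24. miR-465a-3p and miR-465c-3p had the same mean level and log2 fold change as miR-465b-3p, so the choice among these names is arbitrary. miR-423-3p stood at 122 and 113 RPM in NC and at 333 and 223 RPM in GAA. With 4 samples such distances describe these libraries.

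The canonical miRNAs nearest to miR-484 in mean level had smaller differences. miR-19b-3p, just above miR-484, had a log2 fold change of 0.30, and miR-181d-5p, just below, had one of 0.40. Others of similar level varied more widely, such as miR-222-3p (496 RPM, 1.22), miR-615-3p (262 RPM, 1.12) and miR-210-3p (398 RPM, -0.42). miR-196b-5p and miR-501-3p, on either side of miR-320-3p, had 0.20 and 0.62.

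The members with a sequence are rich in G and C. Their GC content was 63.6% for miR-484, 65.0% for miR-877-5p and 59.1% for miR-877-3p, beside a median of 47.6% among 319 miRNAs with a sequence and at least 1 RPM in every sample. Across these miRNAs, GC content and log2 fold change had a Spearman correlation of 0.21, a description over miRNAs from the same 4 libraries. The 29 other miRNAs with at least the GC content of miR-484 had a median log2 fold change of 0.63, and 1 of them reached that of miR-484. miR-877-5p, with the higher GC content, had 0.36. The part of base composition in the difference of miR-484 was not tested. Nor was that of the larger share of miRNA reads in the GAA libraries, beyond the divisions by miRNA RPM given above.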

How the data were processed

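Small RNA libraries of 2 NC and 2 GAA samples were used, with groups and replicate numbers from the sample labels. The authors filtered the reads, mapped them to GRCm38, counted known miRNAs of miRBase with miRDeep2 and divided by mappable reads, and deposited one log2 value per miRNA, log2(RPM + 1). Absent rows were taken as no reads. Within a sample the values followed steps of 1 read, and at least 95.4% of values were whole reads within 0.02, including all values of the members. Because the deposited unit was log2, no count model was run.

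GAA and NC were compared with limma 3.58.1 (R 4.3.3; mean-variance trend, pseudocount 1, no filter) over 869 miRNAs with Benjamini-Hochberg adjustment, at the FDR and fold thresholds of the study. Recovery of reads and the fit were tested on simulated data. The simulation of the fit had less noise than typical replicates here and larger changes than those of the members. Its power on these data was therefore not tested. Loci came from GENCODE M21, sequences from RefSeq, and folds from RNAfold 2.7.2. Named miRNAs were the members, a noncanonical list, intron-filling precursors, the nearest canonical miRNAs by level and the 2 nearest by pattern. miR-6944, miR-1981 and the precursors compared with miR-877 in arm span were named after their values were seen. The members and lists were chosen with earlier results of these data known.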

Additional observations from a re-analysis of the deposited data

How the results depend on the processing

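miR-484 was higher in GAA under all 15 alternatives, with a log2 fold change from 0.80 (median-of-ratios factors) to 1.51 (without GAA replicate 2) and an adjusted p from 0.018 to 0.354, so that it passed the thresholds under none of them. miR-877-3p was higher under its 14 alternatives, from 0.29 to 1.10; the filter of at least 10 reads left it out. The direction of the other members depended on the divisor. miR-320-3p was -0.059 with median-of-ratios factors, and 0.00011 after division by the summed miRNA RPM. miR-877-5p was -0.065 after division by the summed miRNA RPM (with and without the replicate block), -0.11 with median-of-ratios factors and -0.099 when centred on the canonical median. Leaving out each sample in turn gave 0.18 to 0.77 for miR-320-3p, 1.16 to 1.51 for miR-484, 0.08 to 0.64 for miR-877-5p and 0.40 to 1.10 for miR-877-3p.

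Relative to the canonical median, the difference of miR-484 was 1.05 over all canonical miRNAs, 0.87 over those with at least 1 RPM in every sample, 0.84 over those within 4-fold of its level and 0.76 with a pseudocount of 0.1. With that pseudocount the difference was -0.10 for miR-320-3p and -0.18 for miR-877-5p. The number of miRNAs past the thresholds was 1 after division by the summed miRNA RPM, with or without the 5 most abundant miRNAs, and 1 with median-of-ratios factors. It was 3 when centred on the canonical median, and 0 with every other alternative apart from the block; none was a member.

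With the replicate block, 0 miRNAs passed and the adjusted p of miR-484 was 0.354; the block with division by summed miRNA RPM gave 6. The labels do not say what a shared number means. The deviations of samples with the same number had a correlation of -0.15 over 323 miRNAs. The crossed pairing, added after seeing the data, gave 0. Depth limits the miR-877 arms, where 3 reads correspond to 0.530 to 0.634 RPM.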

Other observations

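Precursors that overlap an annotated small nucleolar or Cajal body RNA form another group that can be cut outside the canonical route. Of 20 listed mature miRNAs whose RefSeq hairpin did so, 13 had at least 1 RPM in every sample, 19 had a higher mean log2 value in GAA, beside 75.3% of all 869 miRNAs, and 0 passed the thresholds with limma. Both GAA samples were above both NC samples for 8 of the 20 (40.0%), beside 38.6% of the 869. The median log2 fold change was 0.30, beside 0.22 over all miRNAs. Many of the 869 miRNAs have few reads. Of the 350 canonical miRNAs with at least 1 RPM in every sample, 91.4% had a higher mean log2 value in GAA. Their median log2 fold change was 0.49. The group took 0.0572% and 0.0553% of the summed miRNA RPM in NC and 0.0531% and 0.0554% in GAA, and the groups overlapped.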
